A study of Rattus norvegicus with 9 samples.

Results

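The integrated stress response genes and amino acid genes described here are 45 genes named by symbol: targets and regulators of the transcription factor ATF4, tRNA synthetases, amino acid transporters, and serine, one-carbon and other amino acid enzymes. Of the 45, 42 had a probe with a value on the arrays, out of 12167 genes in all. Cebpb, Gars1 and Phgdh had none. The genes were picked because stress genes had set apart arrays of different numerals in these same data, so differences between numerals are given below as a description with no test. Differences between the cell populations were not used in the choice and are tested. Genes picked for numeral differences have a wider spread in a fit that leaves the numeral out, which makes calls there less likely.

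RNA was measured on 9 one-colour arrays from oligodendrocyte progenitors of newborn rats, glial cells that mature into the cells making myelin. The labels give 3 populations, defined by surface antigens. They are cells positive for O4 and negative for NG2 (called O4), cells positive for both NG2 and A2B5 (called NG2/A2B5), and cells that express NG2 (called NG2). Titles of the NG2 arrays name no other antigen. The NG2 proteoglycan is the product of Cspg4, A2B5 recognizes gangliosides found early in the lineage, and O4 recognizes sulfatides found later. Each population has 3 arrays with the numerals I, II and III, so that the 3 arrays of a numeral are 1 array of each population. The series text speaks of 3 cultures. Nothing in the labels says which numeral is which culture, so they are called numerals here, and a p-value measures only how these 9 arrays spread. No allele or treatment is given for any group, and the labels do not say whether animals were pooled.

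The integrated stress response begins with kinases that phosphorylate the translation factor eIF2, which lowers protein synthesis in general while the mRNA of ATF4 is translated more. ATF4 then raises the transcription of genes for amino acid import and synthesis, for charging tRNAs, and for feedback on the pathway itself. In oligodendrocytes the pathway is known from the load of membrane protein synthesis and from models of myelin disease. ATF4 binds with C/EBP family partners to a composite sequence called the C/EBP-ATF response element (CARE), whose core letters are TGATGNAA.

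RefSeq promoters of assembly GRCr8, from 250 bases before to 50 bases after each start, were found for 40 of the 45 genes, but not for Aldh18a1, Atf3, Eif4ebp1, Gars1 and Txnip. The letters TGATGNAA, read on both strands, occurred in 14 of 40 promoters of 38 measured genes (35%), against 3.98% of all 33469 promoters of that length. The list names ATF4 targets, so this share is no result of the arrays. The endoplasmic reticulum stress element, CCAAT followed by any 9 bases and CCACG, was searched in the same way and occurred in 0 of the 40, against 0.0657% of all promoters. A match is a description of the letters and not a binding site. The stretches below hold the element before the start in 7 genes that lie at different points of the pathway. They are written 5′ to 3′ on the gene's strand, with the 8 letters of the element in capitals. All but Slc7a1 carry it read on the opposite strand.
Nupr1, chr1:190645929-190645976, minus strand: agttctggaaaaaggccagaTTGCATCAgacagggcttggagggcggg
Chac1, chr3:126795944-126795991, plus strand: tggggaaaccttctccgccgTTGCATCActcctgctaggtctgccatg
Trib3, chr3:161275534-161275574, minus strand: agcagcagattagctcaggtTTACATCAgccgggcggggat
Slc7a1, chr12:11664438-11664485, plus strand: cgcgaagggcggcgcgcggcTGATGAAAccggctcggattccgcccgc
Mars1, chr7:65023754-65023790, minus strand: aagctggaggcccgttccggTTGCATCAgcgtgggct
Iars1, chr17:15193653-15193696, minus strand: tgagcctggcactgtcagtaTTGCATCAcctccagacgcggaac
Aars1, chr19:55908350-55908397, plus strand: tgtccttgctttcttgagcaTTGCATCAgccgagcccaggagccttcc
Among the printed elements, that of Mars1 lay closest to the start, 17 bases before it, and that of Chac1 farthest, 167 bases before it. Aars1 also holds a second match after the start, which is not printed. The letters as read on the gene's strand were the same, TTGCATCA, in Nupr1, Chac1, Mars1, Iars1 and Aars1.

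Values below are log2 of the deposited scaled intensity. Values of each gene come from the probe with the highest mean, and the brightness of 2 probes does not rank their genes by RNA. Array medians lay between 1.05 and 1.07 intensity units, and the 25th percentile, taken here as background, lay between 0.205 and 0.255. Of the 42 genes, 40 had a mean above background and 41 had a value on every array. Pck2 and Pycr1 were not above background, and Chac1 lacked a value on the O4 array of numeral III. The highest percentile of signal differed by numeral: the 99th percentile was 107.7 to 120.1 units under I, 123.0 to 144.7 under II and 114.2 to 125.9 under III. Of 14 measured markers of the oligodendrocyte lineage, 13 were above background, Mbp being the exception. Above background were also 6 of 7 astrocyte, 6 of 12 microglial, 3 of 6 neuronal, 5 of 6 endothelial, and 3 of 8 pericyte and fibroblast markers. Of all 12165 genes tested, 9908 were above background, so passing this level does not show that a cell type was present. In bulk RNA, fewer cells of a type and less RNA per cell cannot be told apart.

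The arrays of numeral II carried the highest signal for most of these genes. For 28 of 42 genes the 3 arrays of numeral II all lay above the 6 others, against 8.26% of the 12165 genes tested, and the rule picked the genes for this contrast, so nothing is read from the difference. Txnip alone lay below both other numerals on all 3 arrays of numeral II (3.94% of genes tested did). The mean of numeral II was the highest of the 3 for 38 genes (46.4% of genes tested); the exceptions were Cebpg, Gdf15, Txnip and Pck2. The median difference of II minus I was 0.83 and that of II minus III 0.98 on the log2 scale, where the medians over the genes tested were 0.10 and 0.08. Numerals I and III lay closer together, with a median difference of 0.18. The gap between the highest and lowest numeral mean exceeded 1 log2 unit for 24 genes (16.6% of genes tested).

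**Figure D1:**
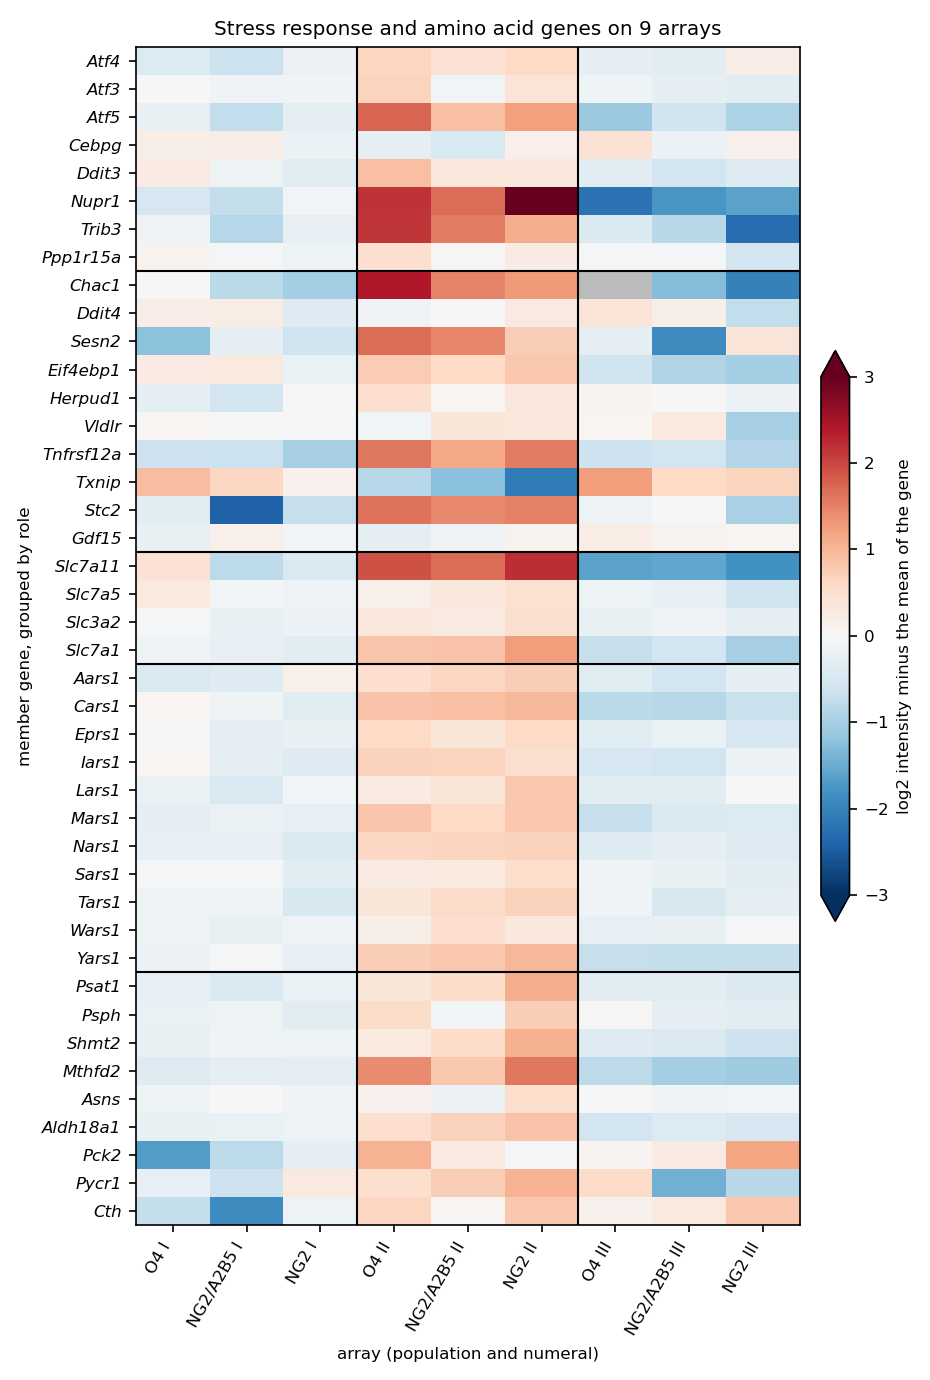
Log2 intensity minus the gene's mean over its arrays (colour), for 42 genes in rows grouped by role and 9 arrays in columns ordered by numeral; the grey cell has no value. The mean of the 3 numeral II columns is the highest for 38 genes, and Txnip is lowest there.

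Beyond a high numeral II, 11 genes lay in a full order with no overlap, II above I above III (1.4% of genes tested). They were Nupr1, Chac1, Eif4ebp1, Slc7a11, Slc7a1, Cars1, Mars1, Yars1, Shmt2, Mthfd2 and Aldh18a1. The arrays of numeral I lay above those of III for 12 genes (8.2% of genes tested) and below them for Pck2 and Cth (10.3%). Both of the last genes read near or under background.

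Among the transcription factors and feedback genes, 5 of 8 had numeral II above both others. In the sentences that follow, values are in the order O4, NG2/A2B5 and NG2 within each numeral. Nupr1, a small stress-induced chromatin protein, read 0.88, 0.67 and 1.29 under I, 3.54, 3.06 and 4.40 under II, and -0.84, -0.37 and -0.22 under III. Its numeral means were 0.95 ± 0.31, 3.66 ± 0.68 and -0.48 ± 0.33 (SD, n = 3), the widest gap of the 42 genes, with II 6.58-fold over I and 17.7-fold over III. No arrays of different numerals overlapped. Trib3, a pseudokinase that is induced by ATF4 and restrains it, read 0.52, -0.22 and 0.38 under I, 2.78, 2.19 and 1.74 under II, and 0.21, -0.20 and -1.66 under III. Its numeral II arrays stood apart, while I and III overlapped. Atf5, a relative of ATF4, read 3.40, 2.88 and 3.35 under I, 5.37, 4.52 and 4.85 under II, and 2.50, 3.02 and 2.66 under III, and numeral II was 3.26-fold over I and 4.56-fold over III.

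Atf4 itself, whose protein is controlled mainly by translation, read 5.32, 5.10 and 5.56 under I, 6.39, 6.16 and 6.34 under II, and 5.45, 5.40 and 5.93 under III. The lowest numeral II array lay above the highest of the others, and the fold of II was 1.95 over I and 1.63 over III. Ddit3, which encodes the factor CHOP, read 3.94, 3.55 and 3.37 under I, 4.60, 4.02 and 4.01 under II, and 3.37, 3.12 and 3.30 under III. The margin was narrow here, since the lowest II array, at 4.01, lay close to the O4 array of I at 3.94. Atf3, a stress-induced repressor, read 2.40, 2.28 and 2.29 under I, 3.06, 2.31 and 2.78 under II, and 2.26, 2.12 and 2.05 under III. Its II arrays overlapped those of I but not those of III. Ppp1r15a, the phosphatase subunit that reverses eIF2 phosphorylation, read 4.29, 4.12 and 4.03 under I, 4.70, 4.21 and 4.42 under II, and 4.13, 4.14 and 3.61 under III, also with an overlap of II and I. Cebpg, a dimerization partner of ATF4, had its lowest mean under II: its means were -0.67 ± 0.21, -0.93 ± 0.31 and -0.60 ± 0.30 (SD, n = 3), with all 3 numerals overlapping.

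**Figure D2:**
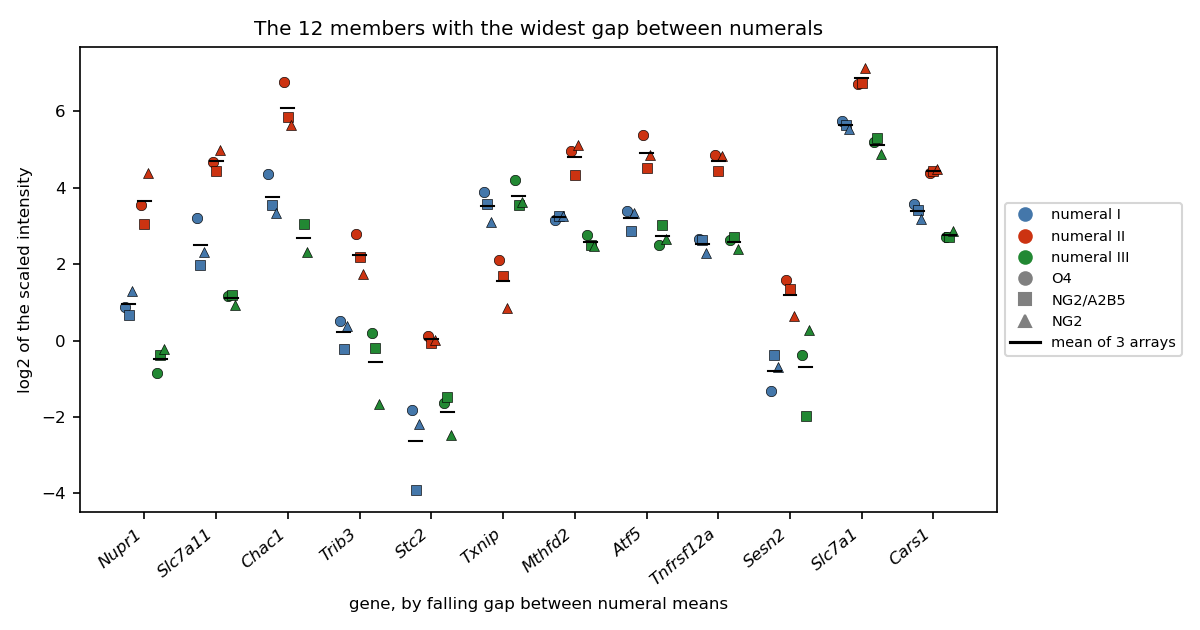
Log2 intensity on each array (points; colour for the numeral, shape for the population) and the mean of 3 arrays (bars; 2 for Chac1 under III) for the 12 genes with the widest gap between numeral means. Numeral II is the highest group for each gene except Txnip, where its 3 points lie at 0.85 to 2.11, below the 6 others.

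Among the effector genes, 5 of 10 had numeral II above both others, and these genes were the most varied. Chac1, an enzyme that degrades glutathione, read 4.36, 3.54 and 3.35 under I, 6.77, 5.85 and 5.63 under II, and 3.05 (NG2/A2B5) and 2.32 (NG2) under III, where the O4 value is missing. Numeral II was 5.04-fold over I and 10.5-fold over III, the latter mean resting on 2 arrays. Stc2, a secreted glycoprotein, read -1.81, -3.93 and -2.18 under I, 0.13, -0.05 and 0.01 under II, and -1.65, -1.48 and -2.47 under III, with 2 of its arrays under background. Its numeral II values lay within 0.18 of each other, while the numeral I values spread over 2.11. Sesn2, a leucine sensor that restrains mTORC1, read -1.33, -0.38 and -0.69 under I, 1.58, 1.36 and 0.64 under II, and -0.38, -1.97 and 0.29 under III. Here II stood apart from both, with a fold of 3.98 over I. Tnfrsf12a, the receptor of the cytokine TWEAK, read 2.65, 2.63 and 2.28 under I, 4.86, 4.44 and 4.83 under II, and 2.64, 2.71 and 2.39 under III. Its I and III arrays overlapped, and II was 4.55-fold over I. Eif4ebp1, which represses cap-dependent translation, had means of 4.90 ± 0.26, 5.51 ± 0.11 and 3.95 ± 0.22 (SD, n = 3). All 3 numerals stood apart from each other.

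Txnip, which binds thioredoxin and limits glucose uptake, was the 1 gene whose numeral II arrays all lay below the others. It read 3.88, 3.58 and 3.09 under I, 2.11, 1.70 and 0.85 under II, and 4.21, 3.55 and 3.63 under III. The highest numeral II array, at 2.11, lay below the lowest of the others, at 3.09, and the II mean was a fold of 0.256 of I and 0.211 of III. Other effectors had narrower gaps between numeral means. Ddit4, an inhibitor of mTORC1, read -0.78, -0.78 and -1.38 under I, -1.09, -1.004 and -0.72 under II, and -0.61, -0.83 and -1.74 under III, with a gap of 0.12 between its numeral means, the smallest of the 42. Vldlr, a lipoprotein receptor, read -0.24, -0.30 and -0.34 under I, -0.39, 0.06 and 0.01 under II, and -0.26, 0.00 and -1.30 under III, and its gap between numerals was smaller than its gap between populations. Herpud1, a membrane protein of endoplasmic reticulum-associated degradation, read 0.43, 0.14 and 0.70 under I, 1.21, 0.76 and 1.03 under II, and 0.78, 0.68 and 0.52 under III. Its II arrays lay above those of I and overlapped those of III. Gdf15, a secreted stress cytokine, had means of -0.37 ± 0.20, -0.41 ± 0.20 and -0.19 ± 0.08 (SD, n = 3), with no numeral apart from the others.

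Of the 4 amino acid transporters, 3 had numeral II above both others. Slc7a11, the cystine and glutamate exchanger, read 3.20, 1.98 and 2.31 under I, 4.67, 4.45 and 4.99 under II, and 1.16, 1.20 and 0.94 under III. The 3 numerals did not overlap, and II was 4.6-fold over I and 12.1-fold over III. Its 2 other probes did not follow: 1 was above background with II minus I at -0.08, and 1 was under background with II minus I at -2.65. The probe under background read -10.5 on the NG2 array of II, far below its other arrays. With that reading included, the mean of the 3 probes put II minus I at -0.17. Slc7a1, the carrier of arginine and lysine, read 5.75, 5.64 and 5.54 under I, 6.72, 6.74 and 7.13 under II, and 5.19, 5.30 and 4.89 under III, and II was 2.32-fold over I. Slc3a2, the heavy chain that pairs with Slc7a11 and Slc7a5, had a narrower range, with means of 6.99 ± 0.08, 7.51 ± 0.11 and 6.95 ± 0.09 (SD, n = 3). Slc7a5, the carrier of large neutral amino acids, had II above III but overlapping I, with means of 2.42 ± 0.24, 2.72 ± 0.15 and 2.07 ± 0.24 (SD, n = 3).

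The tRNA synthetases, which join each amino acid to its tRNA, were the most uniform role. In 11 of 11 genes numeral II lay above both others, with a median II minus I of 0.81 and II minus III of 1.01. The gap between numeral means ran from 0.51 for Wars1 to 1.68 for Cars1, the cysteine enzyme. Cars1 read 3.58, 3.42 and 3.18 under I, 4.37, 4.43 and 4.50 under II, and 2.71, 2.70 and 2.87 under III. Its arrays within a numeral lay within 0.40 of each other, and the 3 numerals did not overlap. Lars1, the leucine enzyme, read 4.92, 4.66 and 5.02 under I, 5.35, 5.47 and 5.91 under II, and 4.76, 4.78 and 5.10 under III. Its numerals I and III had means of 4.87 and 4.88, with II at 5.58. Yars1 and Mars1, the tyrosine and methionine enzymes, had gaps of 1.56 and 1.26; a second probe of Mars1 did not follow.

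Of 9 enzymes of serine, one-carbon and other amino acid metabolism, 4 had numeral II above both others: Psat1, Shmt2, Mthfd2 and Aldh18a1. Mthfd2, which oxidizes one-carbon folates in mitochondria, read 3.15, 3.25 and 3.27 under I, 4.96, 4.34 and 5.11 under II, and 2.75, 2.51 and 2.48 under III. II was 2.99-fold over I and 4.67-fold over III. Shmt2, which passes serine carbon into that pathway, had means of 3.26 ± 0.05, 4.07 ± 0.39 and 2.94 ± 0.12, and Psat1, of serine synthesis, had 5.61 ± 0.13, 6.57 ± 0.37 and 5.54 ± 0.07 (SD, n = 3 each). Aldh18a1, of proline synthesis, had 3.70 ± 0.04, 4.58 ± 0.18 and 3.39 ± 0.08 (SD, n = 3). Psph, the last step of serine synthesis, had II above I by 0.62 on average, but its NG2/A2B5 array of II, at 4.01, lay within the range of III.

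Asns, which makes asparagine and is a textbook ATF4 target, depended on the probe. The probe with the higher mean read 3.16, 3.31 and 3.15 under I, 3.42, 3.12 and 3.81 under II, and 3.27, 3.15 and 3.20 under III, with numerals that overlapped and a gap of 0.24. Its other probe had II above I by 0.96 and above III by 1.38. The mean of the 2 probes put II above I by 0.60 and above III by 0.81. Over the 15 genes with more than 1 probe there were 17 further probes. Of these, 12 were above background and had numeral differences of the same direction as the probe used, 2 were above background and did not (Slc7a11 and Mars1), and 3 under background did not (Slc7a11, Sesn2 and Pck2). Cth, which makes cysteine from cystathionine, read -2.71, -3.86 and -2.12 under I, -1.33, -1.92 and -1.18 under II, and -1.86, -1.68 and -1.16 under III, with 2 arrays under background. Pycr1, of proline synthesis, read -3.34, -3.72 and -2.79 under I, -2.61, -2.34 and -2.05 under II, and -2.52, -4.53 and -3.91 under III, with 8 of 9 arrays under background. Pck2, of mitochondrial phosphoenolpyruvate synthesis, had 5 arrays under background.

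Genes with and without the CARE letters are set side by side here as a description. The rule picked the genes for the numeral contrast, so nothing is read from the difference. Of 14 measured genes with the letters in the promoter window, 11 had numeral II above both others; the exceptions were Herpud1, Pck2 and Pycr1. Of 24 with a promoter but without the letters, 15 did, and of the genes tested 8.26% did. The median gap between numeral means was 1.37 log2 units with the letters and 0.79 without. The first median lies between the gaps of Pck2 and Pycr1, which were not above background. Slc7a11, Stc2, Mthfd2, Atf5, Tnfrsf12a and Sesn2, with wide gaps, had no match in this window.

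The same count was made for pathway genes outside the 42, beside 8.26% of the genes tested. The 42 were picked for this contrast, so nothing is read from their shares against these. Numeral II lay above both others in 5 of 9 other cytosolic tRNA synthetases and associated factors and in 1 of 11 mitochondrial synthetases. It did so in 3 of 20 genes of the eIF2 kinases, eIF2, eIF2B and the phosphatase, and in 4 of 24 genes of other arms of the unfolded protein response. Vars1, the valine enzyme, had numeral means of -1.95, -0.84 and -1.81 for I, II and III. Eif2s2, a subunit of eIF2, had 4.57, 5.29 and 4.32. Hspa5, the chaperone BiP of the endoplasmic reticulum, had 4.13, 4.41 and 3.49, a smaller step from I to II than from III to I.

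In the metabolic lists the count was 5 of 19 other serine and one-carbon genes, 2 of 15 other transporters and 2 of 16 other amino acid enzymes. Slc1a4, a carrier of alanine, serine and cysteine, had means of 3.65, 4.65 and 3.73. Shmt1, the cytosolic partner of Shmt2, had 3.14, 3.55 and 2.39. The count was 3 of 22 for other reported ATF4 or CHOP targets, 2 of 14 for NRF2 targets and glutathione genes, and 1 of 18 for mTORC1 and amino acid sensing genes. Cdkn1a, an inhibitor of the cell cycle, had means of 6.87, 8.31 and 6.63. Nqo1, a textbook NRF2 target, was highest under I, with means of -0.24, -1.68 and -2.39. Arrdc4, a relative of Txnip, had 0.03, -0.98 and 0.90, which is the order of Txnip.

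**Figure D3:**
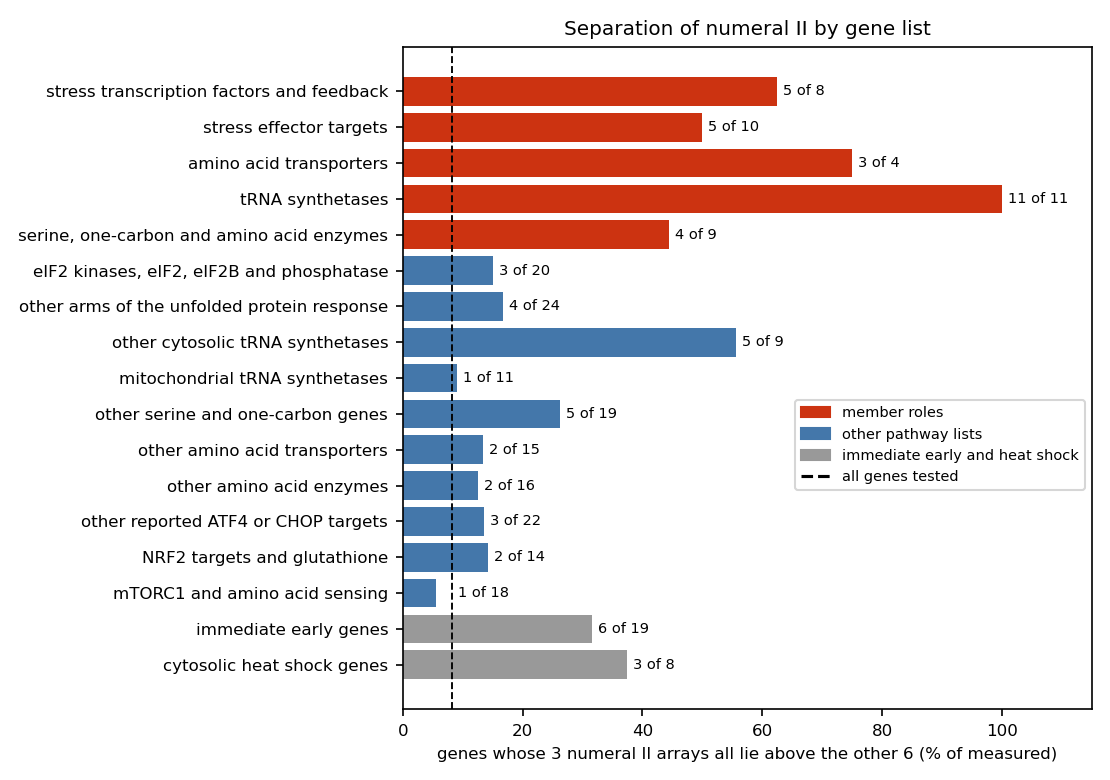
Share of measured genes whose 3 numeral II arrays all lie above the 6 others, by list (bars, with counts) and over the 12165 genes tested (dashed line, 8.26%). The tRNA synthetases reach 11 of 11, and mTORC1 and amino acid sensing genes 1 of 18.

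Other stress genes and cell type markers also varied by numeral, with some ranges that overlapped. Numeral II lay above both others in 6 of 19 immediate early genes and 3 of 8 cytosolic heat shock genes. The summed intensity of the heat shock genes was 542 to 560 units under I, 666 to 936 under II and 500 to 555 under III. That of the immediate early genes was 734 to 916, 905 to 1139 and 738 to 797. The oligodendrocyte lineage markers summed to 561 to 669 under I, 548 to 605 under II and 725 to 846 under III, and the astrocyte markers to 96.0 to 116, 70.7 to 107 and 119 to 167. The microglial markers summed to 12.2 to 13.8, 12.3 to 17.3 and 11.6 to 13.5. Pericyte and fibroblast markers summed to 21.96 to 23.40, 27.0 to 33.6 and 23.4 to 27.8, neuronal markers to 11.1 to 14.3, 12.9 to 17.3 and 7.73 to 13.5, and endothelial markers to 9.25 to 10.2, 6.66 to 8.97 and 8.84 to 11.2. The sums are of linear intensity, so bright genes weigh most. Vwf, an endothelial marker, was low under II, with numeral means of 1.71, -0.14 and 1.81 on the log2 scale. By contrast, 4 of 6 endothelial markers had their highest mean under II. The part that the differences in this paragraph have in the numeral II signal was not tested.

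The 42 genes were picked for how they vary with the numeral, so the sizes of the numeral and population gaps are set side by side as a description. The median gap between the highest and lowest population mean was 0.27 log2 units, against a median gap between numeral means of 1.03; over the genes tested these medians were 0.33 and 0.44. The gap between numerals exceeded that between populations for 40 of 42 genes (61.1% of genes tested), Ddit4 and Vldlr being the exceptions. The numeral accounted for a median of 85.3% of a gene's variance over the arrays and the population for 4.57%, beside 34.2% and 21.2% over the genes tested.

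**Figure D4:**
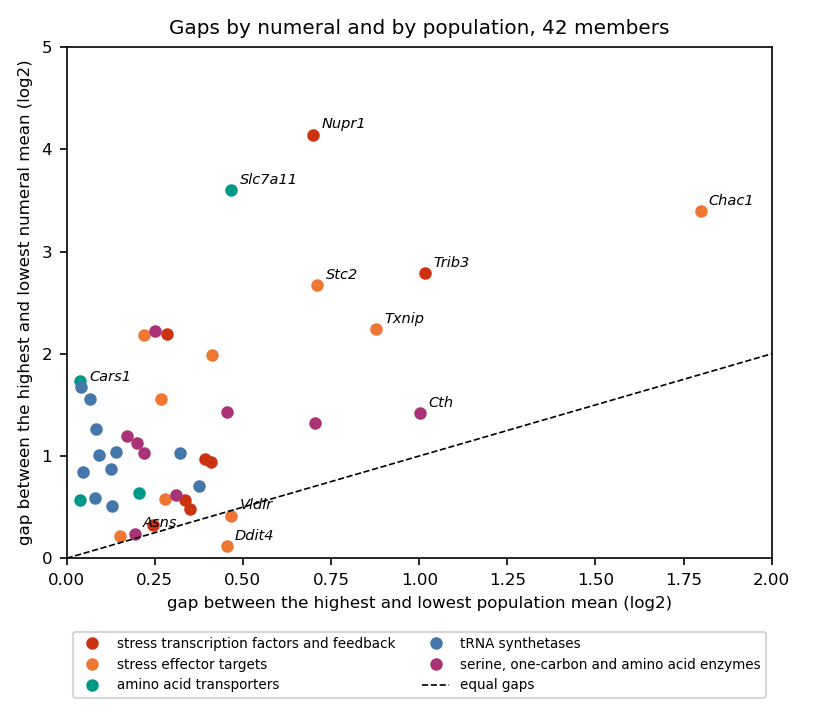
Gap between the highest and lowest numeral mean (vertical axis, log2) against the gap between the highest and lowest population mean (horizontal axis, log2) for 42 genes, coloured by role. Ddit4 and Vldlr lie under the line of equal gaps, and Chac1 has the widest gap between populations, 1.80, with its O4 value of numeral III missing.

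Without a block, no gene of the 42 was called between populations. In limma's fit of the 9 arrays, adjusted by Benjamini-Hochberg over 12165 genes, 0 of 42 passed an adjusted p of 0.05 in O4 minus NG2, O4 minus NG2/A2B5, NG2/A2B5 minus NG2 or the F test. The share of genes called was 0% higher and 0.00822% lower in each comparison of O4, 0% both ways in NG2/A2B5 minus NG2, and 0.00822% in the F test. At an unadjusted p under 0.05 the count was also 0 of 42 in each. Of the genes tested, 4.46% were then higher and 3.54% lower in O4 minus NG2, 2.11% and 1.17% in O4 minus NG2/A2B5, and 2.43% and 2.05% in NG2/A2B5 minus NG2, with 5.38% in the F test. The lowest adjusted p of the 42 genes was 0.713 in O4 minus NG2, and it was 0.9997, 0.9999 and 0.960 in the other tests. The spread behind these tests holds the differences between numerals, for which the 42 genes were picked. For Nupr1, with the widest numeral gap, the SE in O4 minus NG2 was 1.53 here and 0.248 with the numeral fitted as a block. Low counts in this fit thus follow in part from the choice of genes, and nothing is read from them. A p that misses the threshold does not show equal levels.

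By sign alone, 32 of 42 genes had a higher mean in O4 than in NG2/A2B5 (53.2% of genes tested), 26 of 42 in O4 than in NG2 (51.9%) and 18 of 42 in NG2/A2B5 than in NG2 (48.4%). These comparisons share arrays. The median differences were 0.11, 0.05 and -0.04, where those of the genes tested were 0.02, 0.02 and -0.01. The smallest p in O4 minus NG2 belonged to Ddit4, with a difference of 0.45 (SE 0.267, 95% interval -0.17 to 1.07), then Ppp1r15a, Chac1, Ddit3 and Lars1. The difference of Ppp1r15a was 0.35 (SE 0.238, 95% interval -0.20 to 0.90). That of Ddit3 was 0.41 (SE 0.374, 95% interval -0.46 to 1.28) and that of Lars1 -0.33 (SE 0.322, 95% interval -1.08 to 0.41). In O4 minus NG2/A2B5 the 5 smallest belonged to Atf3, Pycr1, Chac1, Ddit3 and Herpud1, and Atf3 differed by 0.34 (SE 0.266, 95% interval -0.28 to 0.95). In NG2/A2B5 minus NG2 they belonged to Cth, Ddit4, Vldlr, Lars1 and Atf4. Cth differed there by -1.002 (SE 0.628, 95% interval -2.46 to 0.45) and Atf4 by -0.39 (SE 0.386, 95% interval -1.29 to 0.50).

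In the same fit, 0 genes of each pathway and stress list were called higher and 0 lower in any contrast between populations. In O4 minus NG2, 3 of 19 genes of the eIF2 list and 3 of 8 cytosolic heat shock genes had an unadjusted p under 0.05, beside the 4.46% higher and 3.54% lower of all genes tested. These 2 lists are named for the highest counts, and each other pathway and stress list had 0 or 1 such gene. Dele1, which relays mitochondrial stress to the eIF2 kinases, had a difference of 0.76 (SE 0.211, limma adjusted p = 0.566). Eif2b2, a subunit of the eIF2 exchange factor, had one of 0.57 (SE 0.198), and Impact, an inhibitor of the eIF2 kinase GCN2, one of -0.59 (SE 0.169).

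The populations were also compared with the numeral held. Same-numeral arrays deviated together over all genes, so a fit with the numeral as a replicate block was also read. The replicate block alone called 0 of 42 in every contrast (lowest adjusted p 0.290 in O4 minus NG2). The replicate block with limma's trend and robust variance estimates called 2 genes in O4 minus NG2, Chac1 and Txnip, both higher in O4; 0.617% of genes tested were called higher and 0.403% lower there. Chac1 was higher in O4 than in NG2 by 1.16 (SE 0.157, 95% interval 0.83 to 1.50, limma adjusted p = 0.00573), and Txnip by 0.88 (SE 0.174, 95% interval 0.51 to 1.25, limma adjusted p = 0.0307). Without the block the Chac1 difference was 1.80 (SE 1.28, 95% interval -1.25 to 4.84), limma adjusted p = 0.762, with an O4 mean that rests on numerals I and II. That of Txnip was 0.88 (SE 0.898, 95% interval -1.20 to 2.96), limma adjusted p = 0.831. The F test of that fit called Chac1 (limma adjusted p = 0.00637) and 0.83% of genes tested, and with the replicate block alone its adjusted p was 0.417 in limma and 0% of genes were called. The other contrasts called 0 of 42, where 0.00822% of genes tested were called higher and 0% lower in O4 minus NG2/A2B5, and 0.551% and 0.23% in NG2/A2B5 minus NG2.

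The numerals one by one gave the same sign for both genes. Chac1 was higher in O4 than in NG2 by 1.02 under I and 1.13 under II, and the value under III is missing. Txnip was higher in O4 by 0.79, 1.26 and 0.59 under I, II and III. Thus Chac1 and Txnip, which lay on opposite sides between numerals, lay on the same side between O4 and NG2.

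O4 was the highest population within each of the 3 numerals for 4 genes, Atf3, Ddit3, Trib3 and Txnip. That is 9.52% of the 42 genes, beside 6.94% of genes tested. NG2 was the highest within each numeral for Nupr1, Aars1, Lars1 and Cth (9.52%, beside 7.74%). Both shares lie near those of the genes tested, so no trait of the 42 genes is read from them. NG2/A2B5 was the lowest within each numeral for Atf4 (2.38%, beside 3.86%), and O4 for Aldh18a1 (2.38%, beside 5.66%). Of 42 genes, 0 had NG2/A2B5 highest within each numeral (3.19%) and 0 had NG2 lowest (7.79%). The step from NG2 to O4 was not of equal size under each numeral: for Trib3 it was 0.14, 1.04 and 1.87, and for Ddit3 0.57, 0.59 and 0.07, under I, II and III. Nupr1 was lower in O4 than in NG2 by 0.41, 0.86 and 0.62. Over all 9 pairs of arrays, 0 of 42 genes had 1 population apart from another, in either direction. Such a separation cannot occur for the 28 genes whose numeral II arrays lie above all others, nor for Txnip, which lies below. For most of the 42 the 0 thus follows from how the numerals part, and nothing is read from it. Of the genes tested, 7.5% had O4 above NG2 and 6.55% below, 5.35% had O4 above NG2/A2B5 and 3.43% below, and 5.2% had NG2/A2B5 above NG2 and 5.05% below.

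**Figure D5:**
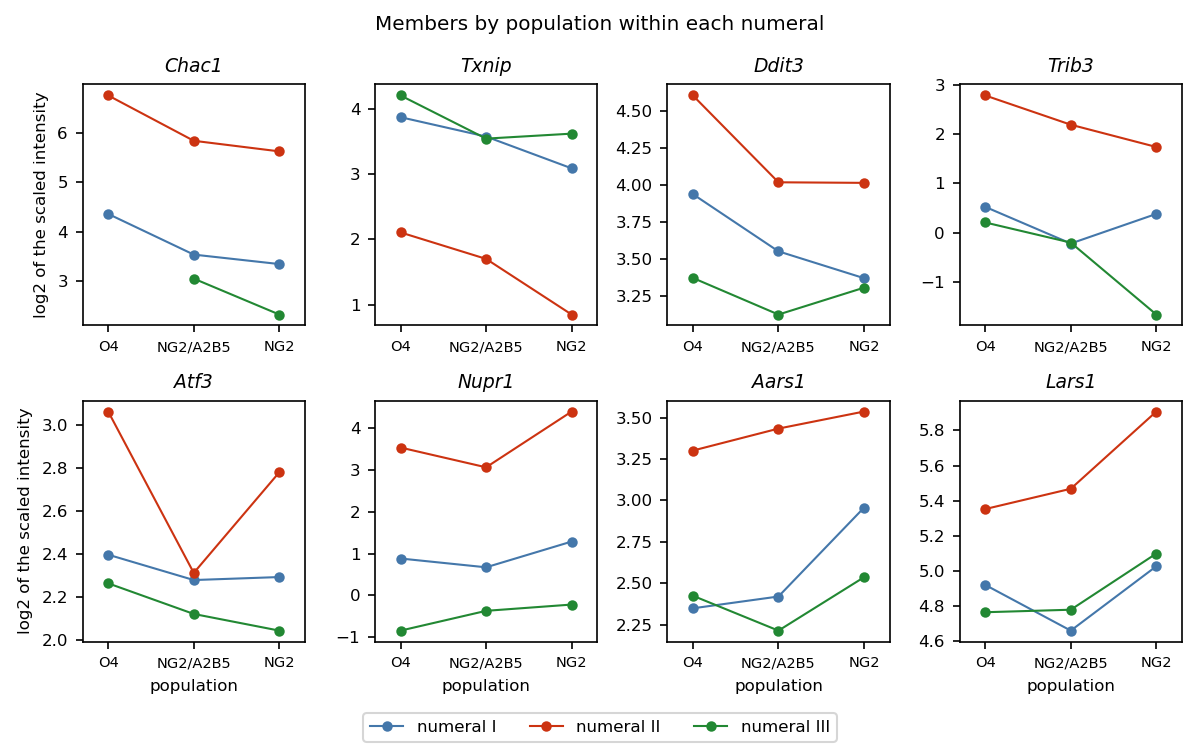
Log2 intensity by population (horizontal axis) with 1 line for each numeral, for 8 genes that kept an order within numerals or were called with the replicate block. Txnip and Chac1 are highest in O4 on each line with an O4 value, and Nupr1, Aars1 and Lars1 are highest in NG2 on each line.

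Within numeral II the roles differed in the population with the highest array, a pattern looked at after the data were seen. Among 39 genes above background with all values, the NG2 array was highest for 24, the O4 array for 13 and the NG2/A2B5 array for 2 (42.9%, 28.4% and 28.7% of genes above background). NG2 was highest for 7 of 7 enzymes, 4 of 4 transporters and 8 of 11 tRNA synthetases. O4 was highest for 6 of 8 transcription factors and feedback genes and 5 of 9 effectors. After quantile normalization the counts were 22, 13 and 4, with NG2 highest for 7 enzymes, 3 transporters and 7 synthetases; NG2 was then highest for 36.65% of genes above background. Each population has 1 array under a numeral, so these counts describe 3 arrays and have no test. The other numerals gave other counts. Under I, O4 was highest for 18 of the 39, NG2/A2B5 for 11 and NG2 for 10 (35.2%, 30.3% and 34.5% of genes above background), with O4 highest for 4 of 4 transporters and 0 of 7 enzymes. Under III the counts were 17, 12 and 10 (41.8%, 30.3% and 27.9%), with O4 highest for 1 of 4 transporters and 4 of 7 enzymes.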

How the data were processed

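The deposited table holds a linear scaled intensity for each of 35129 probes on 9 arrays. Per the labels, RNA was amplified through transcription in vitro, and synthetic spikes served to normalize. Scanner and software were not given in the sources used here. Values coded -9999 were missing. Values at or below 0 were set to the array's smallest positive value before log2. Probes with 1 symbol (16865) were kept, and those with several (165) or none (18099) left out. Names were updated through Entrez identifiers with RefSeq's GRCr8 gene table, where 16836 matched and 1 symbol changed. Each gene took its probe with the highest mean. Differences came from 1 limma 3.58.1 fit (lmFit, eBayes, two-sided, R 4.3.3) of the 9 arrays without a block, called at an adjusted p under 0.05 over 12165 genes. The small number of arrays limits precision. The fit was tested on simulated data.

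Pairing rests on the numerals in the labels: deviations from population means correlated at 0.217 to 0.462 between same-numeral arrays and at -0.357 to 0.00467 between others, so fits with the numeral as a replicate block were added. The genes and lists were chosen with earlier results of these data known. Full values were given for textbook genes of the response, the 12 genes above background with the widest gap between numeral means, the 5 with the smallest p in each contrast, and called genes. From each other list, genes were named among the 3 with the widest gap or the smallest p. Promoter stretches were taken in order of gap from genes whose promoter holds the element; Cars1 and Yars1, which hold it only after the start, and Pck2 and Pycr1, not above background, were passed over, a choice made later, and 7 genes were printed. Other settings were quantile normalization, median centring, a floor at the 25th percentile, leaving out dim genes, the mean of a gene's probes, trend and robust variances, the 6 arrays compared, and leaving out each array.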

Additional observations from a re-analysis of the deposited data

How the results depend on the processing

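The count of genes with numeral II above both others was 28, and it was 27 after quantile normalization and 28 to 33 when an array was left out. The counts called between populations were 0 and stayed at 0 to 0 when an array was left out. They became 2 (O4 minus NG2) and 1 (F test) with the replicate block with trend and robust estimates. With the replicate block alone no call changed. The count of genes with 1 population highest within each numeral, 8, was 8 or 9 elsewhere. Averaging the 3 probes of Slc7a11 reversed its II minus I to -0.17. Of these, 1 was under background and read -10.5 on the NG2 array of II, which weighs on that mean. Each numeral difference of a named gene was counted once for each other setting, and the settings share arrays. Of these comparisons, 412 kept the value within 1 SD, 7 moved and 1 reversed. Population differences of the 5 genes with the smallest p in each contrast were counted in the same way. Of these comparisons, 268 kept direction and call, and in 1 Chac1 became called. Txnip, outside these genes, was the other gene called in O4 minus NG2. Probes near the 25th percentile limit Pck2, Pycr1, Cth and Stc2.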
